A study of Danio rerio with 3 samples.

Results

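The Vegf ligand genes, the Vegf receptor genes and CCBE1 were examined in sorted cells of the adult zebrafish brain. Members were taken by gene symbol: the receptor genes FLT4, KDR, kdrl and flt1, the ligand genes VEGFA, vegfba, VEGFC and VEGFD, and CCBE1. VEGFA names 2 gene IDs, so 10 of the 32105 gene IDs in the count table were members, and all 10 were found. The symbol table, which gave a symbol to 26269 IDs, writes many zebrafish genes in capitals in human style. It does not say which VEGFA ID is vegfaa and which is vegfab, so the IDs are given (ENSDARG00000034700 and ENSDARG00000103542).

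The series holds 3 bulk RNA-seq libraries of a single group: purified muLECs, the mural lymphatic endothelial cells named in the study's title, from adult wildtype zebrafish brains. Cells with lyve1-driven DsRed fluorescence were sorted after enzymatic dissociation with Liberase, each library pooled the cells of 6 brains, and the RNA was amplified before sequencing. The fish's age beyond adult is not given. With no other cell population in the group, levels were set against other genes of the same libraries and no condition was compared.

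Vegf ligands are secreted growth factors that bind receptor tyrosine kinases on endothelial cells. Vegfa acts mainly on blood vessels through Kdrl and Kdr in zebrafish, while Flt1 binds Vegfa tightly, signals weakly and limits how much of it is free. Vegfc, and in mammals also Vegfd, acts through Flt4, the receptor on which the growth of lymphatic vessels depends. Vegfc is made as a longer precursor, and the secreted protein Ccbe1 assists the protease Adamts3 in cutting it to its active form.

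The libraries held 36044297, 35168650 and 34307745 reads in genes for replicates 1, 2 and 3. A count of 0 allows up to 3 reads, which is 0.0794, 0.107 and 0.0729 CPM (counts scaled to library size with TMM factors), and this floor and all intervals cover counting error only, since amplified reads are not independent molecules. The sort marker lyve1b had 24766, 14590 and 26265 reads. Of 10 lymphatic endothelial marker genes, 8 reached 10 reads in every library, beside 12.8% of all gene IDs. Among these markers the scavenger receptor gene MRC1 had 143178, 148871 and 154604 reads and stab2 had 23643, 15665 and 27145. PROX1, the lymphatic transcription factor gene, had 614, 1213 and 1 reads, so it was at the floor in replicate 3. Of 8 genes on the blood endothelial list, 4 were at or under 3 reads in every library. Of all gene IDs, 62.3% reached 10 reads in no library and 42.5% had 0 reads in all 3. Among the 4 genes were the member gene kdrl and cdh5, which is not limited to blood endothelium and had 0, 3 and 0 reads. The barrier gene MFSD2A (ENSDARG00000035909) had 2639, 17 and 51 reads, and the tight junction genes CLDN5 (ENSDARG00000014059) and CLDN5 (ENSDARG00000043716) had 269, 613 and 681 and 4, 83 and 302. Any 2 libraries differed in their counts by far more than counting error, with a chi-square of 609.8 or more for each degree of freedom. No library was thus a copy of another, but with amplified reads this cannot show that the pools were independent. Each was counted as a sample of its own by its label. The labels give 6 brains for each library but name no sort day. The edgeR p-values and SE rest on the spread between these pools, estimated for each gene in part from other genes of like level.

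The 10 genes fell into 3 patterns. FLT4, KDR and VEGFA (ENSDARG00000034700) had 315 reads or more in all 3 libraries. The genes flt1, VEGFA (ENSDARG00000103542), VEGFC, VEGFD and CCBE1 had 255 to 522 reads in a single library and at most 7 in the other two. The genes kdrl and vegfba stayed at or under 3 reads in every library. Over all gene IDs, 12.8% reached 10 reads in all 3 libraries, 9.35% in exactly 2, 15.6% in exactly 1 and 62.3% in no library. Among the 10 members the numbers were 3, 0, 5 and 2.

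**Figure D1:**
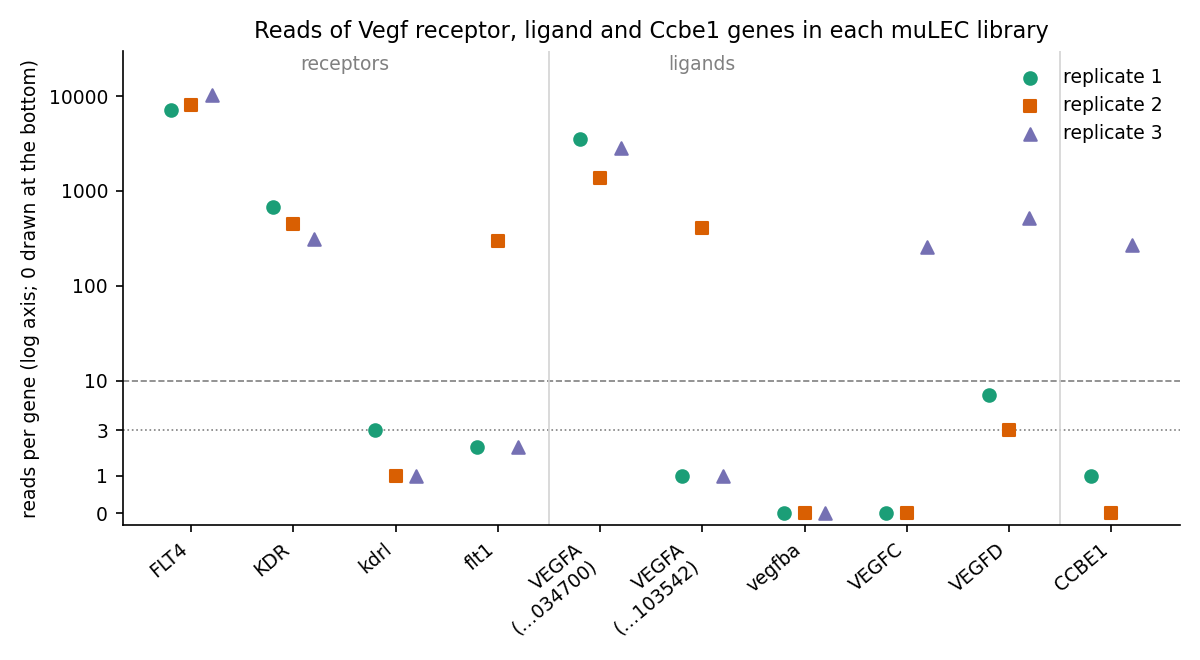
Reads of each member gene in each muLEC library, on a log axis with 0 drawn at the bottom. Each point is 1 library, the dashed line marks 10 reads and the dotted line 3 reads. FLT4, KDR and VEGFA (ENSDARG00000034700) lie above 100 reads in all 3 libraries, and 5 genes do so in 1 library.

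FLT4, the receptor gene for Vegfc, had the most reads of the members in every library. It had 7173, 8030 and 10250 reads in replicates 1, 2 and 3, or 189.9, 286.9 and 249 CPM, with a mean of 242 CPM ± 48.9 (SD, n = 3). The libraries were close together, with replicate 1 lowest and replicate 2 highest on the CPM scale. In reads, not divided by gene length, FLT4 stood above 97.1%, 97.2% and 98.1% of the genes with at least 1 read in the same library. In the authors' deposited YuGene scores, which run from 0 to 1 and rise with a gene's rank in its library, FLT4 had 0.878, 0.879 and 0.930.

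FLT4 stood above the median gene. Every gene that reached 10 reads in 2 or more libraries was set against the median of these genes with an edgeR quasi-likelihood test at a Benjamini-Hochberg adjusted p under 0.05. This compares reads, which also grow with transcript length, and lengths were not used here. FLT4 lay 4.30 ± 0.32 above the median gene on the log2 scale (SE, edgeR adjusted p = 4.83e-10, higher in 3 of 3 libraries). It was 3.58, 3.69 and 3.10 without replicates 1, 2 and 3, each still called, where fewer low genes passed the filter and the median gene was a higher one. Of all 7111 tested genes, 23.4% stood above the median gene and 1.24% below it. Of the 10 member genes 3 could be tested, and 2 of those 3, FLT4 and VEGFA (ENSDARG00000034700), stood above the median gene, both also with DESeq2 and limma-trend. The 3 tested genes are those that passed the filter on low reads, so this count describes them and not the set.

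The spread of FLT4 between libraries lay within the range of genes of like level. Its coefficient of variation was 0.202. Over 456 tested genes whose mean CPM lay within 2 times of it the median was 0.339 and the 5th to 95th percentiles were 0.0770 and 0.788, and 25.2% of those genes had a smaller value. By Euclidean distance of log2(CPM + 1) over the 3 libraries, the 5 genes with the nearest values among 6780 tested genes with a symbol were the chemokine gene ccl25b (distance of 0.044), PDK2 (ENSDARG00000059054, 0.111), the ribosomal protein gene RPL6 (0.255), FOSB (0.261) and NAP1L1 (0.313). A distance of 0.5 or less was found for 19 genes. Reads of ccl25b were 7338, 8195 and 10263, and the likeness covers level and 3 values only.

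KDR, which encodes a receptor for Vegfa, was present in every library at a much lower read number. It had 680, 452 and 315 reads, or 18.0, 16.1 and 7.66 CPM, with a mean of 13.9 CPM ± 5.51 (SD, n = 3). Replicate 3 was lowest, the library in which FLT4 had most reads, and replicates 1 and 2 were close to each other in CPM. For counting error alone, the exact 95% Poisson intervals of the reads were 630 to 733, 411 to 496 and 281 to 352. KDR stood above 77.1%, 70.8% and 61.1% of genes with a read, and its YuGene scores were 0.372, 0.222 and 0.238.

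The reads of KDR could not be told from those of the median gene. The difference was 0.19 ± 1.23 on the log2 scale (SE, edgeR adjusted p = 0.968), and its sign changed with the reference: it was -0.04 with TMM-scaled library size as offset and -0.99, -0.43 and -0.67 without replicates 1, 2 and 3. The SE, which draws on the spread of other genes of like level, allows ratios well to either side of the median gene. KDR had more reads than the median tested gene in replicates 1 and 2 (medians of 475 and 328 reads) and fewer in replicate 3 (523). The coefficient of variation of KDR, 0.396, was smaller than that of most of the 2798 tested genes of like level, of which 8.97% had a smaller one and whose median was 0.920. The nearest genes to KDR over the 3 libraries were mrpl54 (distance of 0.128), ZMYND19 (0.220), rac2 (0.237), csnk2a1 (0.244) and zgc:153018 (0.256), and 24 genes lay within 0.5.

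FLT4 took nearly all reads of the receptor genes. It held 91.3% of the reads of the 4 receptor genes in replicate 1 (95% Wilson interval 90.6 to 91.9), 91.5% in replicate 2 (90.9 to 92.0) and 97.0% in replicate 3 (96.6 to 97.3). For each KDR read there were 10.5, 17.8 and 32.5 FLT4 reads in replicates 1, 2 and 3. The difference of FLT4 and KDR in log2(CPM + 1), a difference of reads not divided by length, was 4.08 ± 0.76 (SD, n = 3, exact two-sided sign-flip permutation p = 0.25). It was positive in 3 of 3 libraries and largest in replicate 3. With 3 libraries this p is the smallest possible, so a threshold of 0.05 cannot be reached.

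The other receptor genes were at or near 0 in most libraries. The gene kdrl, whose product is the main Vegfa receptor of zebrafish blood vessels, had 3, 1 and 1 reads, at or under the floor in each library. The exact Poisson interval of its reads reached up to 8.77 in replicate 1 and 5.57 in replicates 2 and 3, so a low level was not detectable at this depth. The gene flt1 had 2, 296 and 2 reads. Replicate 2 held 99.0% of its summed CPM, and the 2 reads in each other library were 0.676% of the replicate 2 number.

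VEGFA (ENSDARG00000034700) was the leading ligand gene. It had 3504, 1379 and 2819 reads, or 92.8, 49.3 and 68.5 CPM, with a mean of 70.2 CPM ± 21.8 (SD, n = 3). Replicate 2 was lowest and replicate 1 highest, with no library near 0. It stood above 94.1%, 85.7% and 92.8% of genes with a read, and its YuGene scores were 0.782, 0.542 and 0.788.

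This gene lay 2.50 ± 0.45 above the median gene on the log2 scale (SE, edgeR adjusted p = 5.20e-05, higher in 3 of 3 libraries). Without replicate 3 it was 1.42 and no longer passed (adjusted p = 0.0946), and without replicates 1 and 2 it was 1.45 (adjusted p = 0.0487) and 2.23 (adjusted p = 4.83e-07). The adjusted p over the alternatives that kept all 3 libraries and the filter of 10 reads in 2 libraries stayed under the threshold. The level of this gene in CPM was 71.0 without replicate 3, against 70.2 with it. Its coefficient of variation was 0.311, and 28.1% of 1304 tested genes of like level had a smaller one.

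The other VEGFA gene did not share this pattern. VEGFA (ENSDARG00000103542) had 1, 407 and 1 reads, with 99.7% of its summed CPM in replicate 2. Replicate 2 was the library with the fewest reads of the first VEGFA gene, and the only one with more than 1 read of the second. In that library the 2 genes had 49.3 and 14.5 CPM. Whether reads of the 2 copies could be assigned to the wrong copy was not tested, since no source used here names the counting program.

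VEGFA (ENSDARG00000034700) held most reads of the 5 ligand genes in every library. Its share was 99.8% in replicate 1 (95% Wilson interval 99.6 to 99.9), 77.1% in replicate 2 (75.1 to 79.0) and 78.4% in replicate 3 (77.0 to 79.7). The remainder was the second VEGFA gene in replicate 2, and VEGFD and VEGFC in replicate 3. FLT4 had 2.05, 5.82 and 3.64 reads for each read of VEGFA (ENSDARG00000034700). KDR had fewer reads than that ligand gene in every library, at 5.15, 3.05 and 8.95 ligand reads for each KDR read. These ratios are of reads not divided by gene length, so they do not give the order of the transcripts.

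VEGFC, VEGFD and CCBE1 were found above 10 reads in replicate 3 alone. VEGFC had 0, 0 and 255 reads, the last with an exact Poisson interval of 225 to 288 and a level of 6.20 CPM. VEGFD had 7, 3 and 522 reads, at 12.7 CPM in replicate 3, and the 7 and 3 reads were 1.34% and 0.575% of the replicate 3 number. CCBE1 (ENSDARG00000086158) had 1, 0 and 269 reads, at 6.54 CPM in replicate 3. VEGFC, VEGFD and CCBE1 thus had nearly all their reads in the same library, where they stood above 57.4%, 70.7% and 58.3% of genes with a read, and the mean of each was at most 0.146 CPM without replicate 3. The gene vegfba, whose mammalian counterpart binds Flt1, had 0 reads in all 3 libraries, as did 42.5% of all gene IDs.

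Reads in a single library were common at this read number. Of 2490 genes whose highest library held 250 to 599 reads, 1167 (46.9%) reached 10 reads in that library only, 36.3% in 2 libraries and 16.8% in all 3. All 5 members with reads in a single library had their highest value in this range. Of the 1167 genes, 756 had their reads in replicate 3, 274 in replicate 1 and 137 in replicate 2. Among genes with 600 to 1499 reads in the highest library, where KDR lies, 42.6% reached 10 reads in all 3 libraries. This share was 85.3% from 1500 to 4999 reads, where VEGFA (ENSDARG00000034700) lies, and 99.5% from 5000 to 19999, where FLT4 lies.

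**Figure D2:**
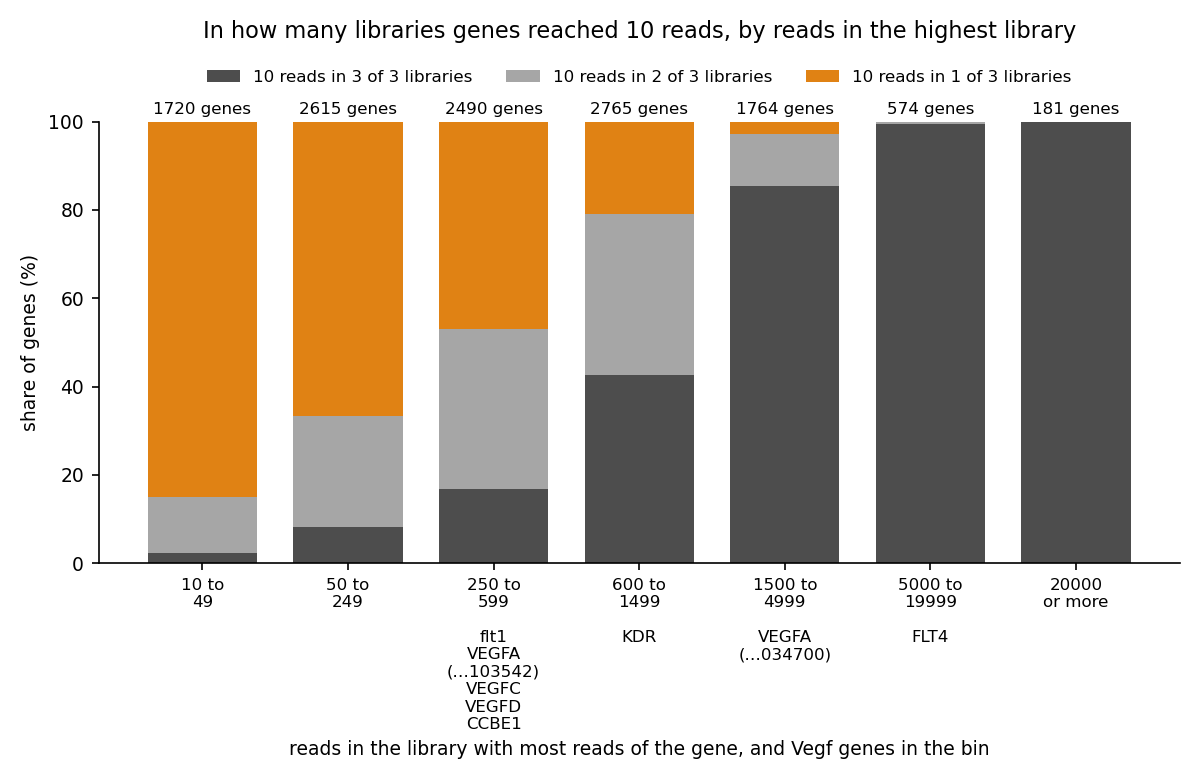
Share of genes that reached 10 reads in 1, 2 or 3 libraries (bar colours), by reads in the gene's highest library, with the number of genes above each bar and the Vegf and CCBE1 genes of each bin under it. The bin of 250 to 599 reads, with 46.9% of genes in 1 library, holds the 5 members seen in 1 library.

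Markers of other brain cells also differed between the libraries. The summed CPM of 19 macrophage and microglia marker genes was 1085, 1035 and 3336 in replicates 1, 2 and 3. Most of each sum was apoeb, at 990, 724 and 2367 CPM. The gene cd74a, at 93.5, 246 and 547 CPM, was also present in all 3 libraries, and cd74b was at 1.54, 10.9 and 388 CPM. Of the 19 genes, 3, 4 and 11 reached 10 reads. Over all gene IDs, 7472, 6117 and 9739 reached 10 reads, also most in replicate 3. Replicate 3, the library with reads of VEGFC, VEGFD and CCBE1, was alone in passing 10 reads of CORO1A (0, 0 and 466 reads), havcr1 (0, 1 and 346), ptprc (8, 1 and 237) and csf1ra (0, 3 and 102), genes of leukocytes or macrophages. SPI1, a myeloid transcription factor gene of the same list, had 7, 1500 and 14 reads and so was highest in replicate 2. P2RY12, LCP1 and spi1a were at 0 in all libraries, and 4 of the 19 were at 0 in all 3, beside 42.5% of all gene IDs.

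Replicate 2, the library with reads of flt1 and of the second VEGFA gene, had the highest sums of the oligodendrocyte, mural cell, neuronal, radial glia and lymphatic lists. The 9 oligodendrocyte marker genes summed to 677, 2415 and 783 CPM, the 10 mural cell marker genes to 389, 970.2 and 228 CPM and the 9 neuronal marker genes to 71.6, 227 and 100.2 CPM. The highest of each were the myelin gene mbpa, with 21711, 59025 and 28106 reads, RGS5, with 5590, 18235 and 765, and GNG3, with 1607, 3855 and 2578. Next by mean CPM came plp1b, with 3630, 2798 and 3081 reads, TAGLN (ENSDARG00000033466), with 8487, 7724 and 5372, and SNAP25 (ENSDARG00000020609), with 229, 970 and 621. The neuronal gene ELAVL3 had 1, 0 and 1 reads, the pericyte receptor gene PDGFRB 1, 0 and 0, and the oligodendrocyte factor gene OLIG2 1, 0 and 0. The blood endothelial list summed to 77.2, 25.6 and 29.1 CPM. MFSD2A (ENSDARG00000035909) alone made up 69.9 CPM of the replicate 1 sum. CLDN5 (ENSDARG00000014059) was at 7.12, 21.9 and 16.6 CPM, highest in replicate 2, but had most reads in replicate 3 (269, 613 and 681 reads). CLDN5 (ENSDARG00000043716), at 0.106, 2.97 and 7.34 CPM, and plvapa, with 0, 1 and 161 reads, were highest in replicate 3. Fewer cells of a type and less RNA per cell cannot be told apart in bulk samples, and the part of other cells in the member genes' values was not tested.

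The remaining lists gave smaller differences or few reads. Lymphatic endothelial markers summed to 5756, 7701 and 6197 CPM, though MRC1, stab2 and lyve1b had most reads in replicate 3. Most of each sum was MRC1, at 3790, 5318 and 3759 CPM. Radial glia markers summed to 506, 871 and 432 CPM, with GFAP at 0, 1 and 0 reads and ATP1B4, their highest gene, at 19048, 24382 and 17562. ATP1B4 made up nearly all of each sum, at 504, 871 and 427 CPM. VIM (ENSDARG00000010008), the next by mean CPM, had 0, 3 and 173 reads. Erythrocyte markers summed to 0.0265, 0.0714 and 2.72 CPM over 3 genes, with hbaa1 at 0, 2 and 112 reads and hbaa2 at 1, 0 and 0.

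**Figure D3:**
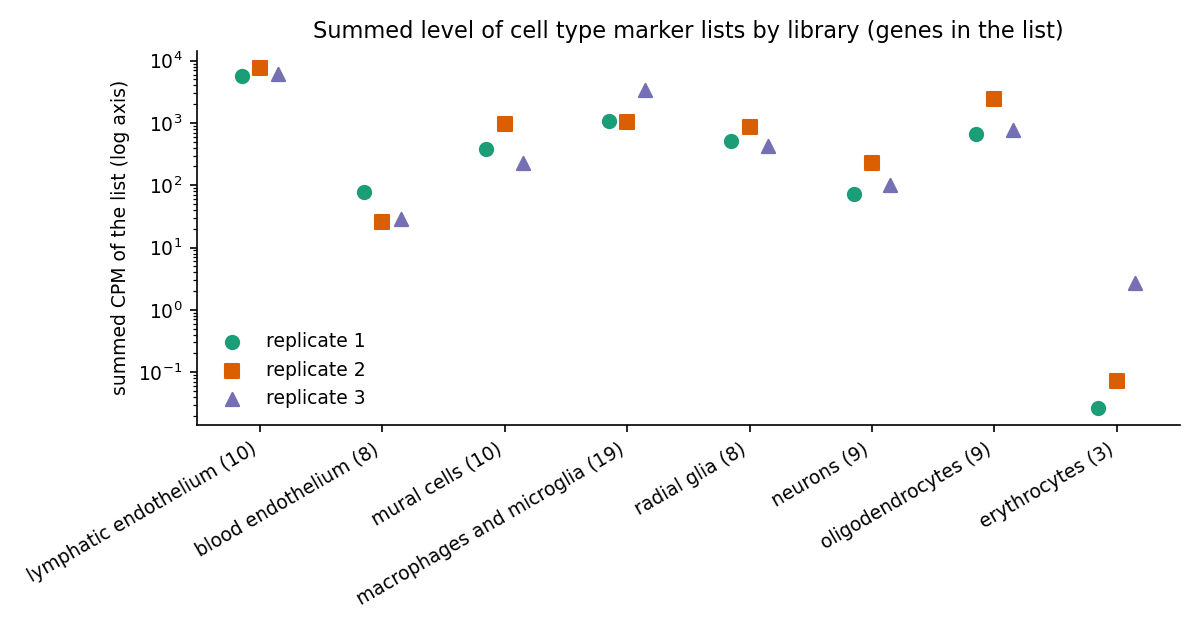
Summed CPM (log axis) of the genes of each marker list in each library, with the number of genes in brackets. Each point is 1 library. The macrophage and microglia list is highest in replicate 3, at 3336 CPM, and the oligodendrocyte list in replicate 2, at 2415 CPM.

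The rest of the pathway was described with 7 lists of genes. Without the members they held 81 genes, of which 43 (53.1%) were tested. Of those, 12 stood above the median gene, or 27.9% beside 23.4% of all tested genes, and 31 did not pass. By edgeR 0 stood below it (2 at an unadjusted p under 0.05), by DESeq2 0 and by limma-trend 5. The median log2 ratio of the 43 was 0.52, beside 0.22 over all tested genes.

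Other ligand genes and co-receptor genes were not called. PGF, a placental growth factor gene, was the only ID found for the zebrafish names pgfa and pgfb. Which of these it is was not given, and the other may be missing here. PGF had 703, 314 and 1272 reads in the 3 libraries and did not pass (0.70 ± 0.95 on the log2 scale, SE, edgeR adjusted p = 0.776). The gene vegfbb had 0 reads in all 3. Neuropilins bind Vegf ligands and present them to the receptors, and Nrp2 pairs with Flt4. The NRP2 gene ENSDARG00000096546 had 364, 599 and 531 reads, and the NRP2 gene ENSDARG00000038446 had 9, 487 and 1414. NRP1 had 5, 35 and 765 reads and nrp1b 54, 0 and 17. The 4 co-receptor genes all entered the test and 0 passed by edgeR or DESeq2 in either direction (0 at an unadjusted p under 0.05), while limma-trend placed 1 below the median gene. The first NRP2 gene thus had reads in all libraries, and the others were uneven.

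The genes of the Vegfc processing list, which also holds SVEP1, were uneven between libraries. ADAMTS3, the protease gene, had 59, 1 and 1 reads and its relative ADAMTS14 had 0, 1 and 0. SVEP1, a matrix protein gene needed for lymphatic growth in zebrafish, had 22, 0 and 0 reads. These 3 genes had at most 1 read in replicate 3, the library with CCBE1 and VEGFC. Reads in 1 library only were common at such read numbers. Of all genes with 50 to 249 reads in the highest library, as ADAMTS3, 66.6% reached 10 reads in that library only. With 10 to 49 reads, as SVEP1, the share was 84.9%. ADAMTS14 had more than 1 read in no library. Proprotein convertases also cut the Vegfc precursor. FURIN (ENSDARG00000062909) had 11, 611 and 1022 reads, with a mean of 15.7 CPM ± 13.4 (SD, n = 3) and a log2 ratio of 0.36 that did not pass, and FURIN (ENSDARG00000070971) had 16, 0 and 39. PCSK5 had 160, 1 and 124, PCSK7 0, 1 and 35, and pcsk5a 0 in each library. Of these 8 genes 3 were tested, and 0 passed by edgeR (1 below the median gene at an unadjusted p under 0.05) or by DESeq2 (0 below at an unadjusted p under 0.05), with 2 below by limma-trend.

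Among modulators of the receptors, both genes of the endocytic adaptor Dab2, which takes part in the uptake of Vegf receptors, stood above the median gene. DAB2 (ENSDARG00000053091) had 15847, 8002 and 6985 reads, and dab2 (ENSDARG00000031761) had 3577, 2179 and 3738. Their log2 ratios were 4.57 and 2.83 (adjusted p = 3.10e-10 and 3.58e-06, edgeR), and both were called without each library, with values of 3.30 to 4.09 and 1.67 to 2.44. The other 4 tested genes of this list did not pass. They include the receptor gene TIE1, with 656, 11 and 2114 reads, and ephb4a, with 1249, 1147 and 1376 (adjusted p = 0.0689). The phosphatase gene ptprb, whose product acts on endothelial receptors, had 0, 1 and 3 reads.

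Of 28 signalling genes downstream of the receptors, 13 were tested and 2 were called above the median gene, beside 23.4% of all tested genes. The small GTPase gene rac1a had 5020, 4011 and 4614 reads, a level of 129.5 CPM ± 15.8 (SD, n = 3) and a log2 ratio of 3.40 (adjusted p = 8.15e-08, edgeR), which was 2.33 to 2.84 without each library. The adaptor gene GAB1 had 1932, 1196 and 1176 reads and a log2 ratio of 1.73 (adjusted p = 0.0238, edgeR). Its call was lost without replicate 1 (0.64), replicate 2 (1.21) and replicate 3 (0.79) and with both other offsets (1.51 and 1.54). PLCG1, the phospholipase gene that Kdr family receptors act through, had 4113, 52 and 722 reads and did not pass (adjusted p = 0.0813). Of the 28 genes, 9 were at or under 3 reads in every library and 5 reached 10 reads in 1 library. Over all gene IDs, 62.3% reached 10 reads in no library, 42.5% had 0 reads in all 3 and 15.6% reached 10 reads in exactly 1.

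Of 10 hypoxia pathway genes, which include regulators of Vegfa transcription, 5 were tested. The gene hif1al, of the hypoxia-inducible factor family, was called above the median gene. It had 1580, 1879 and 2417 reads and a log2 ratio of 2.19 (adjusted p = 0.000789, edgeR), which was 1.49, 1.57 and 0.97 without replicates 1, 2 and 3, and not called in the last case. HIF1A had 3, 1109 and 311 reads, and vhl, which marks Hif proteins for breakdown, had 1, 0 and 317.

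Genes known to respond to Vegf in endothelial cells held 7 of the 12 pathway calls. Of 19 such genes, 11 were tested and 7 were called above the median gene, beside 23.4% of all tested genes. Their median log2 ratio was 2.54 over the 11, beside 0.22 over all tested genes. Of the 19 genes, 5 were at or under 3 reads in every library, while 62.3% of all gene IDs reached 10 reads in no library. Genes of this list also respond to other signals, and whether Vegf set their levels was not tested. Levels of ANGPT2, dll4 and other members of the list were known when it was drawn up. ANGPT2 is also on the list of lymphatic endothelial markers. DUSP5, a phosphatase gene of the Erk pathway, led with 35718, 22480 and 57095 reads and a log2 ratio of 6.40 ± 0.30 (SE, edgeR adjusted p = 1.64e-13), which was 5.69, 6.11 and 5.01 without replicates 1, 2 and 3. The growth factor gene ANGPT2 followed at 4.72, the shear-responsive transcription factor gene klf2a at 3.79 and the immediate early gene egr1 at 3.51. Without each library in turn these ran from 3.72 to 4.04, from 2.30 to 3.40 and from 2.31 to 2.88, and all 3 were called each time. NR4A1 at 3.00, dll4 at 2.54 and DUSP6 at 1.88 were also above the median gene. The call of dll4 was lost without replicate 3 (1.38), and that of DUSP6 without replicate 1 (0.97) and replicate 3 (0.57). Without replicate 3 NR4A1 was at 1.85, still called. ESM1, a marker of sprouting tip cells, had 0, 1 and 97 reads. With 50 to 249 reads in the highest library, 66.6% of all genes reached 10 reads in that library only. Of those 1741 genes, 1070 had their reads in replicate 3.

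**Figure D4:**
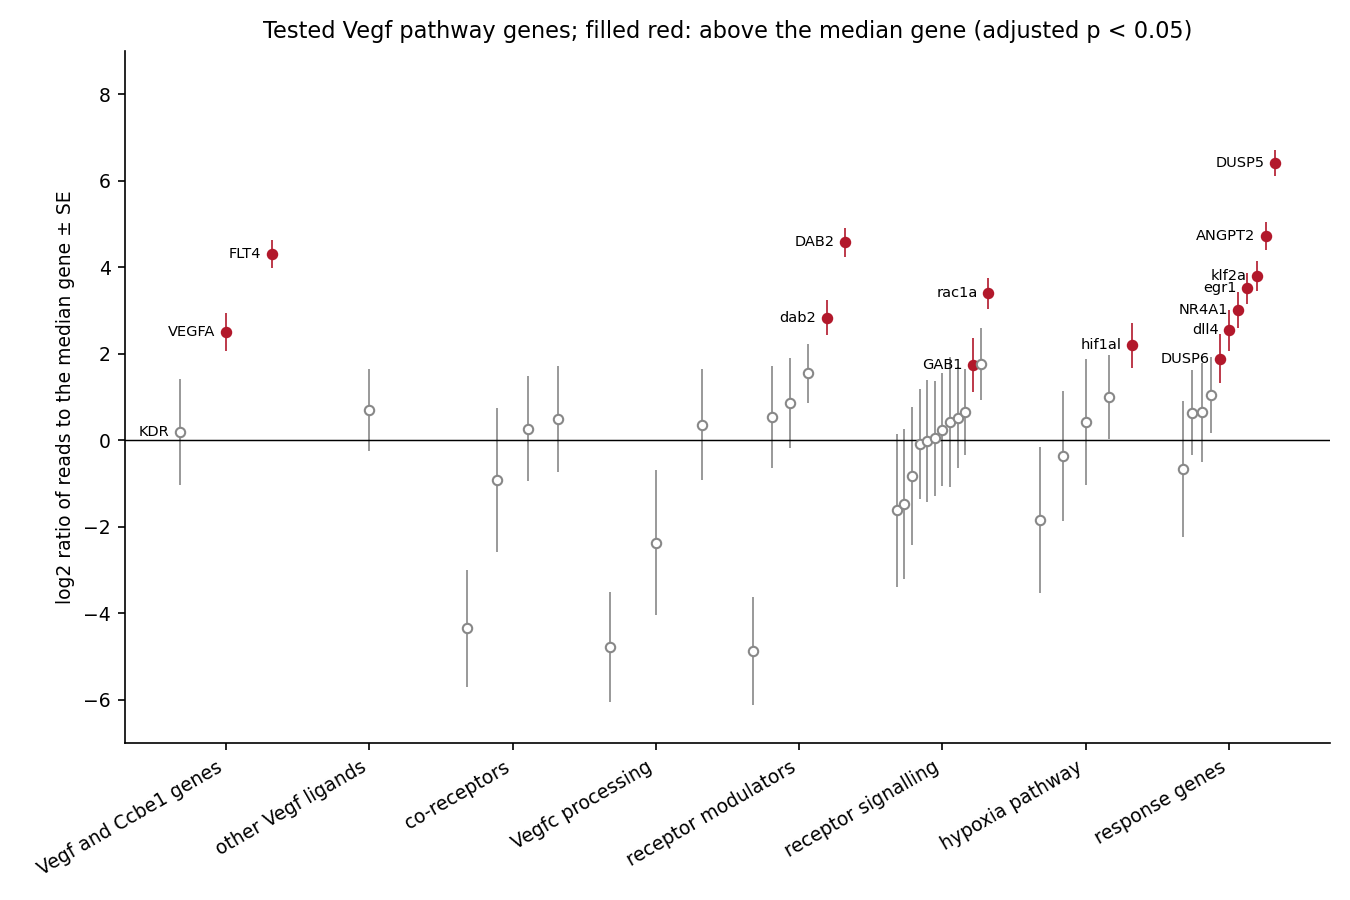
Log2 ratio of reads to the median gene, with its standard error, for the tested genes of the Vegf and CCBE1 set and of each pathway list (edgeR, 3 libraries). Filled red points stood above the median gene at an adjusted p under 0.05 and are named, and open points did not pass. FLT4 lies at 4.30, VEGFA (ENSDARG00000034700) at 2.50 and KDR at 0.19.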

How the data were processed

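The authors deposited raw counts, whole-number reads per Ensembl gene and library, and a YuGene score per gene and library. The submitters' processing notes name GRCz10, bcl2fastq and R 3.2.2. No source used here names the aligner, the counting program or its strand setting. File columns carry the name pvLEC and were matched to samples by replicate number. Each library holds 34307745 to 36044297 reads in genes.

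CPM used TMM factors (1.05, 0.796 and 1.20) from edgeR 4.0.16 in R 4.3.3. The edgeR quasi-likelihood test of an intercept had as offset the logarithm of the median count of the tested genes in each library (475, 328 and 523 reads). Since glmQLFTest does not take a design of 1 column, its F test was written out and tested on simulated data. All genes were simulated at the same dispersion. The simulation thus checks the calculation and not how the test does for genes as uneven as many here. Alternatives used limma 3.58.1 and DESeq2 1.42.0, other offsets and filters, and each library left out.

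Of 184 list symbols in 16 lists, 25 were not matched, by name or by the capital stem where it named no more IDs than the list. List names that led to a single ID by their stem, as pgfa and pgfb did, all counted as matched. The rule for names took all members, co-receptor and Vegfc processing genes and the 4 highest called genes of each other pathway list. It also took set sort and endothelial markers, the highest genes of each marker list by mean CPM, and the 5 genes nearest FLT4 and KDR. NR4A1, dll4, DUSP6, PLCG1, TIE1, ephb4a, ptprb, HIF1A, vhl, ESM1 and the other markers were chosen after their values were seen. Members and lists were chosen with earlier results of these data known. Sequences, positions and gene lengths were not used here.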

Additional observations from a re-analysis of the deposited data

How the results depend on the processing

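FLT4 stood above the median gene under all 10 alternatives. VEGFA (ENSDARG00000034700) did under all but 1, the fit without replicate 3. KDR was called with no filter only, at a log2 ratio of 7.86 over a median gene of a few reads. With no filter 8404 of 18455 tested genes stood above and 0 below (0 at an unadjusted p under 0.05, edgeR). Above were 6 of 9 tested members and 45 of 74 tested pathway genes, so these sets differ from those of the main fit. With 10 reads required in all 3 libraries, 1040 of 4108 tested genes stood above and 219 below, and GAB1, hif1al and DUSP6 lost their calls. Genes below the median gene, 88 here, numbered 0 with DESeq2 (75 at an unadjusted p under 0.05), 1042 with limma-trend and 35 with counts under 2% of a gene's highest library set to 0, an alternative chosen after seeing the data. Without 1 replicate, genes above ran from 937 (of 4444 tested) to 1580 (of 5818), and genes below from 215 to 480 of the same. Members above ran from 1 to 2 of 3 tested, and pathway genes above from 8 (of 28 tested) to 12 (of 38). Coding lengths were not used here, so alternatives that divide by length were not run. Members with 10 reads in every library were 3, also without each replicate and at 50 reads, and 4 at 3 reads. The difference of FLT4 and KDR was 3.70 to 4.46 without 1 replicate. The order of members within each library was the same by YuGene score in 3 of 3. This is no separate check, because that score rises with a gene's rank in its library. No paired analysis was possible because there is a single group. With 3 libraries and reads often found in 1 of them, a gene at a few CPM cannot be placed.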
